A study of Gallus gallus with 17 samples.

Results

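The 6 carbonic anhydrase genes CA2, CA4, CA5A, CA7, CA9 and CA13 were described here in chicken adipose tissue. They are 6 of 13008 named genes on the array, and all probe sets annotated to them were taken, 12 of the 37693 chicken probe sets. Each probe set combines several short probes for 1 transcript. CA5A, CA7 and CA13 had 3 probe sets each, and CA2, CA4 and CA9 had 1 each. The genes were chosen by the log2 differences between lines measured on these same arrays. In those, CA5A stood out as dependent on line, a pattern shown by 1 of its 3 probe sets. With the arrays as labelled limma did not call that probe set. The levels of the 6 genes are therefore given as a description, and the limma counts over them are printed only beside the share of all probe sets.

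Carbonic anhydrases are enzymes that interconvert carbon dioxide and water with bicarbonate and a proton. They differ in where they act: CA2, CA7 and CA13 work in the cytosol, CA5A in the mitochondrial matrix, CA4 on the outer face of the plasma membrane and CA9 across it. In adipocytes the mitochondrial and cytosolic enzymes are known, mainly from work in mammals, for supplying the bicarbonate that pyruvate carboxylase and acetyl-CoA carboxylase use on the way to new fatty acids.

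The study compared adipose tissue of 3 genetic lines to look for pathways linked to leanness. Samples came from male birds at 3 weeks of age, 5 of the line Fayoumi M 5.1, 6 of the line Leghorn GHs 13 and 6 of a broiler line, with 1 Affymetrix array per sample. Broilers are meat chickens selected for rapid growth, whereas Fayoumi and Leghorn birds stay lean. No treatment, transgene or pooling is named in the labels, nor the fat depot, and the arrays of a line are called biological replicates. Values are the deposited log2 expression levels, which run from 2.26 to 16.2. Of all values 37.1% sit exactly at that minimum, and background, taken from blank and reporter probe sets, was 2.29.

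Per array, 56.0% to 59.1% of chicken probe sets exceeded background. All 12 adipocyte markers were above background on all 17 arrays, and FABP4, the fatty acid binding protein of fat cells, lay between 15.72 and 16.18. The arrays labelled broiler 1 and Leghorn 2 lay with the other line. On a scale that puts broiler at 0 and Leghorn at 1, computed without the 12 member probe sets, broiler 1 was at 1.0 and Leghorn 2 at 0.0557, while the remaining arrays of the Leghorn line lay between 0.879 and 0.998 and those of broiler between -0.0197 and 0.127. On the first principal component, which carried 52.9% of the variance over 19345 probe sets, the arrays labelled broiler 2, 3 and 4 and Leghorn 3 and 6 stood apart. No Fayoumi array is among them, so setting these 5 against the other 12 is in part a contrast of lines. These 5 arrays scored between 0.210 and 0.477, against -0.191 to -0.125 for the other 12. Differences of CA5A, CA2, CA13 and CA4 are given below with these arrays, and those against broiler also without them. In whole tissue, fewer cells of a type and less RNA per cell cannot be told apart.

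Of the 12 member probe sets, 9 were above background on at least 1 array and 5 on all 17. CA2, CA4, 1 CA5A probe set and 2 CA13 probe sets were measured throughout, a second CA5A probe set was measured almost only in broilers, CA9 appeared on 3 arrays and CA7 on none. With the arrays as labelled, limma called 0 of the 12 probe sets at an adjusted p under 0.05 in each of the comparisons of Fayoumi with broiler, Leghorn with broiler and Fayoumi with Leghorn. Of all chicken probe sets, 0.714% were called in the first, 0.0% in the second and 0.626% in the third. At an unadjusted p under 0.05 limma counted 2, 3 and 0 of the 12, and over all chicken probe sets 3834, 1840 and 2791. With broiler 1 and Leghorn 2 left out, the counts called were 1, 1 and 0, where 1.82%, 1.75% and 1.44% of all probe sets were called. Nothing is read from these counts, since the same contrasts were known when the genes were picked. The median difference over the 12 was 0.00, 0.01 and 0.00, and that over all probe sets was 0.00 in each comparison.

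CA5A, the mitochondrial enzyme, was measured by probe sets that behaved very differently. The first is called the line-dependent CA5A probe set here, as a name and not as a test result. It was at the shared lowest value of 2.26 on all 5 Fayoumi arrays. On the Leghorn arrays 1 to 6 it read 2.26, 6.39, 2.26, 2.26, 2.26 and 2.26. On the broiler arrays 1 to 6 it read 2.26, 7.39, 8.15, 7.27, 6.36 and 6.21. The signal was therefore present on 5 of 6 broiler arrays, 1 of 6 Leghorn arrays and 0 of 5 Fayoumi arrays, and the exceptions were broiler 1 and Leghorn 2, the same arrays that lay with the other line over probe sets that did not include CA5A. As labelled, the means were 2.26 ± 0.00 in Fayoumi (SD, n = 5), 2.95 ± 1.69 in Leghorn and 6.27 ± 2.09 in broiler (SD, n = 6 each). The difference from broiler was -4.02 in Fayoumi (SE 0.96) and -3.33 in Leghorn (SE 0.91), and Fayoumi differed from Leghorn by -0.69 (SE 0.96). The order was Fayoumi, Leghorn, broiler, and the first pair lay within the spread of the Leghorn arrays.

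**Figure D1:**
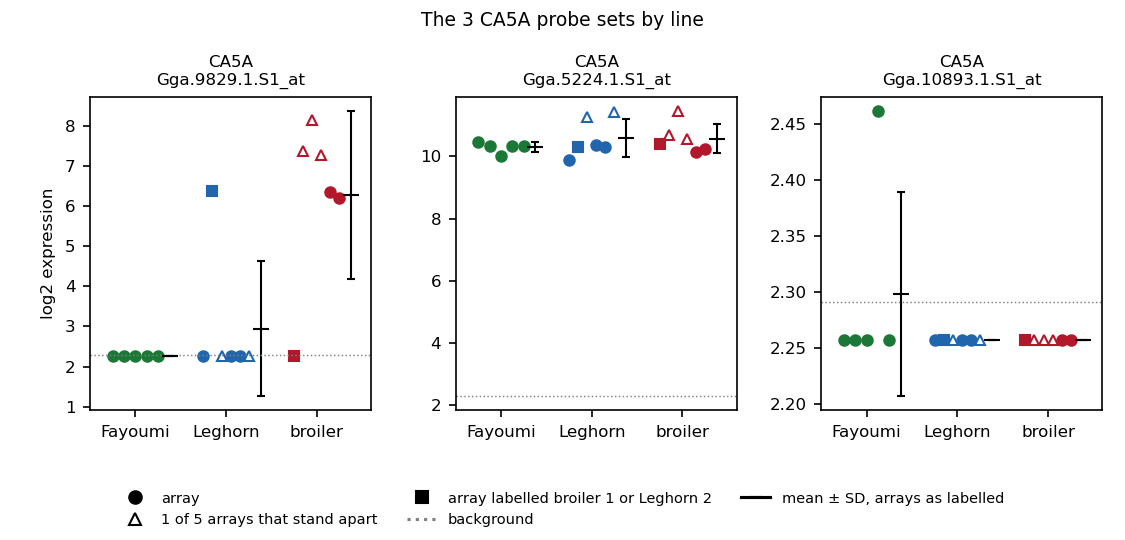
Log2 expression (vertical axis) of the CA5A probe sets on the 17 arrays, by line as labelled; bars are mean ± SD, squares mark broiler 1 and Leghorn 2, open triangles the 5 arrays that stand apart, and the dotted line the background. In the left panel 5 broiler arrays lie between 6.21 and 8.15 with Leghorn 2 at 6.39, and every other array is at 2.26; in the middle panel all arrays lie between 9.88 and 11.45; the right panel spans 2.26 to 2.46 on its own axis.

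Without broiler 1 and Leghorn 2 this CA5A probe set averaged 2.26 on the Fayoumi and Leghorn arrays and 7.08 ± 0.80 on the broiler arrays (SD, n = 5 each). Fayoumi and Leghorn were each 4.82 lower than broiler on the log2 scale (SE 0.29). Because a line at the lowest value only bounds a ratio, the level was at least 27.6-fold lower in both leaner lines without the 2 arrays. With the arrays as labelled the same calculation gave 15.8-fold lower in Fayoumi than in broiler. That value is not a strict bound, because broiler 1 is itself at the lowest value. Each ratio sets the broiler mean against the lowest signal above background on the Fayoumi or Leghorn arrays. Among the 5 arrays that stand apart, the 3 broiler arrays read 7.27 to 8.15 and both Leghorn arrays read 2.26. What sets these 5 arrays apart, and its part in the difference between lines, was not tested. With those 5 left out as labelled, the difference was -2.69 in Fayoumi (SE 1.16) and -1.65 in Leghorn (SE 1.21). The broiler mean was then 4.94 over broiler 1, 5 and 6, and the Leghorn mean was 3.29 over 4 arrays with Leghorn 2 among them, while the 3 broiler arrays left out averaged 7.60. Leaving out all 7 arrays gave -4.03 for each leaner line. That set keeps only broiler 5 and 6 and Leghorn 1, 4 and 5 beside the Fayoumi arrays, here and wherever all 7 are left out below.

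The second, called the always-detected CA5A probe set, was well above background everywhere. It read 10.46, 10.33, 10.02, 10.33 and 10.34 on the Fayoumi arrays. On the Leghorn arrays it read 9.88, 10.30, 11.25, 10.38, 10.29 and 11.43, and on the broiler arrays 10.39, 10.70, 11.45, 10.55, 10.13 and 10.22. The lines overlapped, with means of 10.30 ± 0.17 in Fayoumi (SD, n = 5), 10.59 ± 0.61 in Leghorn and 10.57 ± 0.48 in broiler (SD, n = 6 each), and no neighbours in that order differed beyond their spread. Differences were -0.28 (SE 0.28) for Fayoumi against broiler, 0.02 (SE 0.27) for Leghorn against broiler and -0.29 (SE 0.28) for Fayoumi against Leghorn. Against broiler they were -0.31 and 0.04 without broiler 1 and Leghorn 2, 0.05 and -0.04 without the 5 arrays that stand apart, and 0.12 and 0.01 without all 7. The 5 arrays that stand apart read 10.55 to 11.45 and the other 12 read 9.88 to 10.46, with no overlap. This probe set was itself among those behind the first principal component. The share of all probe sets that separate the same arrays was not counted.

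On the 6 arrays where both probe sets were above background, their log2 values had a Pearson r of 0.953, and the same 3 arrays were highest in each. These points share their arrays and, for 5 of 6, their line. The 3 highest were broiler 2, 3 and 4, which stand apart, so this r includes the gap between them and the remaining arrays. Leghorn 3 and 6 also stand apart but fell outside the 6. There the always-detected probe set read 11.25 and 11.43 and the line-dependent one 2.26. The third CA5A probe set was at 2.26 on 16 arrays and at 2.46 on Fayoumi 4. The platform annotation gives all 3 to CA5A. Probe sequences were not used here, so which part of the transcript each probe set reads was not analysed.

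CA2, a fast cytosolic enzyme found in red blood cells and osteoclasts among others, was measured on every array by its only probe set. It read 9.12, 8.72, 9.68, 9.15 and 9.71 in Fayoumi. The Leghorn arrays read 10.21, 8.71, 9.47, 9.55, 9.25 and 8.02, and the broiler arrays 9.36, 8.02, 7.56, 8.22, 9.30 and 9.39. Low readings came from broiler 2, 3 and 4 and Leghorn 6, all among the arrays that stand apart, and the lines overlapped. Means were 9.27 ± 0.42 in Fayoumi (SD, n = 5), 9.20 ± 0.75 in Leghorn and 8.64 ± 0.81 in broiler (SD, n = 6 each). Fayoumi was 0.63 above broiler (SE 0.42) and Leghorn 0.56 (SE 0.40), both within the spread of the broiler arrays. Fayoumi was 0.78 above broiler and Leghorn 0.80 without broiler 1 and Leghorn 2. Without the 5 arrays Fayoumi differed from broiler by -0.08 and Leghorn by 0.08, and without all 7 by -0.07 and 0.33.

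CA13, the other cytosolic member with signal, had 2 informative probe sets. The more variable CA13 probe set read 6.63, 7.20, 6.86, 7.47 and 7.34 on the Fayoumi arrays. It read 6.44, 6.21, 7.02, 7.50, 7.14 and 4.77 on the Leghorn arrays and 7.30, 4.18, 4.41, 4.05, 5.77 and 5.95 on the broiler arrays. All broiler arrays except broiler 1 lay below every Fayoumi array. Means were 7.10 ± 0.35 in Fayoumi (SD, n = 5), 6.51 ± 0.98 in Leghorn and 5.28 ± 1.29 in broiler (SD, n = 6 each), giving 1.82 (SE 0.59) for Fayoumi over broiler, 1.24 (SE 0.56) for Leghorn over broiler and 0.59 (SE 0.59) for Fayoumi over Leghorn. Without broiler 1 and Leghorn 2 these were 2.23, 1.70 and 0.52, and the Fayoumi and broiler arrays then did not overlap, as was so for 2 of the 12 member probe sets and for 6.79% of all chicken probe sets. Without the 5 arrays that stand apart Fayoumi exceeded broiler by 0.76 (SE 0.41) and Leghorn did by 0.48 (SE 0.43), and without all 7 by 1.24 and 1.17.

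The steadier CA13 probe set varied less. It read 5.35, 5.03, 5.03, 5.09 and 5.67 in Fayoumi, 4.88, 6.17, 5.39, 5.71, 5.15 and 4.83 in Leghorn, and 4.95, 4.66, 4.89, 4.57, 5.03 and 4.74 in broiler. Exactly the same value, 5.03, stood on Fayoumi 2 and 3 and broiler 5, where it was the lowest Fayoumi and the highest broiler reading. What sets this shared value was not tested. Broiler arrays were the lowest of the 3 lines on average, with means of 5.23 ± 0.28 in Fayoumi (SD, n = 5), 5.36 ± 0.52 in Leghorn and 4.81 ± 0.18 in broiler (SD, n = 6 each). The differences were 0.43 (SE 0.21) for Fayoumi over broiler, 0.55 (SE 0.20) for Leghorn over broiler and -0.12 for Fayoumi against Leghorn. Against broiler they were 0.46 for Fayoumi and 0.42 for Leghorn without broiler 1 and Leghorn 2, 0.33 (SE 0.28) and 0.57 (SE 0.29) without the 5 arrays that stand apart, and 0.35 and 0.36 without all 7. Both probe sets ran in the same direction against broiler in these sets of arrays, and without the 5 arrays the steadier one had the greater Leghorn difference. The third was at 2.26 on all arrays except broiler 1, at 2.45.

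CA4, which sits on the cell surface by a lipid anchor and is known in mammals from capillary endothelium, varied widely from array to array. Its probe set read 10.30, 10.19, 10.53, 10.55 and 10.88 on the Fayoumi arrays. On the Leghorn arrays it read 10.19, 9.94, 8.36, 11.87, 11.48 and 7.01. On the broiler arrays it read 11.50, 6.13, 6.73, 5.93, 10.21 and 10.06. The 5 arrays that stand apart read 5.93 to 8.36 and the other 12 read 9.94 to 11.87, with no overlap, while the lines overlapped. CA4 was also among the probe sets behind the first principal component. How many other probe sets separate the same arrays was not counted. Means were 10.49 ± 0.27 in Fayoumi (SD, n = 5), 9.81 ± 1.85 in Leghorn and 8.43 ± 2.44 in broiler (SD, n = 6 each). Fayoumi exceeded broiler by 2.06 (SE 1.10) and Leghorn did by 1.38 (SE 1.04), both within the broiler spread. The differences were 2.68 and 1.97 without broiler 1 and Leghorn 2. Without the 5 arrays the Fayoumi difference was -0.10 and the Leghorn difference 0.28, and without all 7 they were 0.35 and 1.04.

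**Figure D2:**
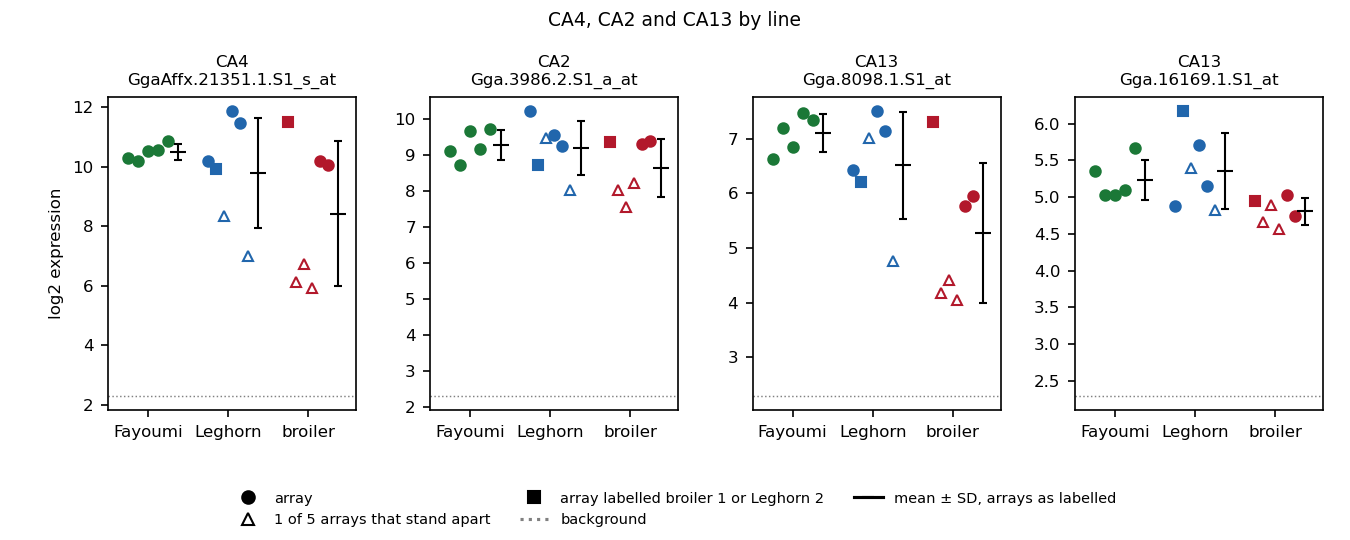
Log2 expression (vertical axis) of CA4, CA2 and CA13 on the 17 arrays, by line as labelled; bars are mean ± SD, squares mark broiler 1 and Leghorn 2, and open triangles the 5 arrays that stand apart. The triangles of CA4 lie between 5.93 and 8.36 below all other arrays, and those of the more variable CA13 probe set, in the third panel, lie at 4.05 to 4.77 with Leghorn 3 at 7.02.

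Markers of other cell types were read on the same arrays. Of 16 endothelial markers 14 were above background on all arrays. Their median per array was 9.39 to 10.04 on the 5 that stand apart and 8.83 to 9.68 on the other 12. Those ranges overlapped, and the 12 hold all Fayoumi arrays. On broiler 2, 3 and 4 the median was 9.39, 9.49 and 9.66. On broiler 1, 5 and 6 it was 9.44, 9.55 and 9.68. Leghorn 3 and 6 read 9.76 and 10.04, and the other Leghorn arrays 8.83 to 9.50. VWF, the clotting factor of endothelium, lay between 12.50 and 13.60, and ROBO4 was at background throughout. The adipocyte marker median was 12.70 to 13.25 on the 5 arrays and 11.34 to 12.84 on the other 12. Of 15 macrophage and osteoclast markers 11 were above background on all arrays and MMP9 and OCSTAMP on none, with medians of 6.28 to 7.02 in Fayoumi, 5.32 to 7.16 in Leghorn and 4.36 to 6.21 in broiler. Epithelial and mesothelial markers had medians of 2.30 to 8.89 on the 5 arrays and 2.28 to 8.50 on the other 12. Among the 5, broiler 4 read 8.24, Leghorn 3 read 7.32 and Leghorn 6 read 8.89, with broiler 2 at 2.30 and broiler 3 at 3.10. Among the 12, Leghorn 1 read 8.50 and broiler 1 read 6.37, and the rest lay between 2.28 and 3.34. RNA integrity, read from the 3′ minus 5′ signal of ACTB, gave 1.49 to 1.92 on the 5 arrays and 1.91 to 2.70 on the other 12. Red cells, which carry CA2, were represented by 9 markers, 7 above background on all arrays and HBE on none, with medians of 2.36 to 3.28 and HBA1, a haemoglobin chain, at 12.23 to 14.01. Liver, where CA5A is abundant in mammals, was represented by 11 markers, 3 above background on all arrays and FGA and F2 on none, with medians of 2.26 to 2.34 and APOA1 at 10.70 to 14.78. Of 8 nerve and Schwann cell markers 3 were above background on all arrays and GAP43 on none, with medians of 2.26 to 2.50. Skeletal muscle was represented by 16 markers, 5 above background on all arrays, with medians of 2.33 to 8.06 on the Fayoumi arrays, 2.26 to 14.18 on the Leghorn arrays and 2.26 to 2.32 on the broiler arrays. Every Fayoumi array lay above every broiler array in this median, but narrowly and near the background of 2.29, with Fayoumi 4 at 2.33 and broiler 2 at 2.32. Fayoumi 2 and 3 lay furthest, at 8.06 and 6.95. The macrophage and osteoclast medians given above also did not overlap between Fayoumi and broiler, with Fayoumi higher. Nor did the endothelial medians, with Fayoumi lower. These were 9.05 to 9.37 in Fayoumi, 8.83 to 10.04 in Leghorn and 9.39 to 9.68 in broiler. Taken singly, 3.05% of all chicken probe sets had no overlap between Fayoumi and broiler arrays. In Fayoumi against broiler limma called 0 of the 16 muscle markers, with 1 at an unadjusted p under 0.05. It called 1 of the 16 endothelial markers lower, with 3 at such a p. Of the 15 macrophage and osteoclast markers it called 1 higher, with 5 at such a p. In the other marker lists it called 0. Of all named genes by their brightest probe set 0.961% were called and 13.9% had such a p. The more variable CA13 probe set read 7.30 on broiler 1, with a muscle median of 2.27, and 6.44 on Leghorn 1, with 14.18. On Fayoumi 1 to 5 it read 6.63, 7.20, 6.86, 7.47 and 7.34, with muscle medians of 2.62, 8.06, 6.95, 2.33 and 3.31. The part of cell makeup and RNA quality in the CA4, CA2, CA13 and CA5A values was not tested.

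**Figure D3:**
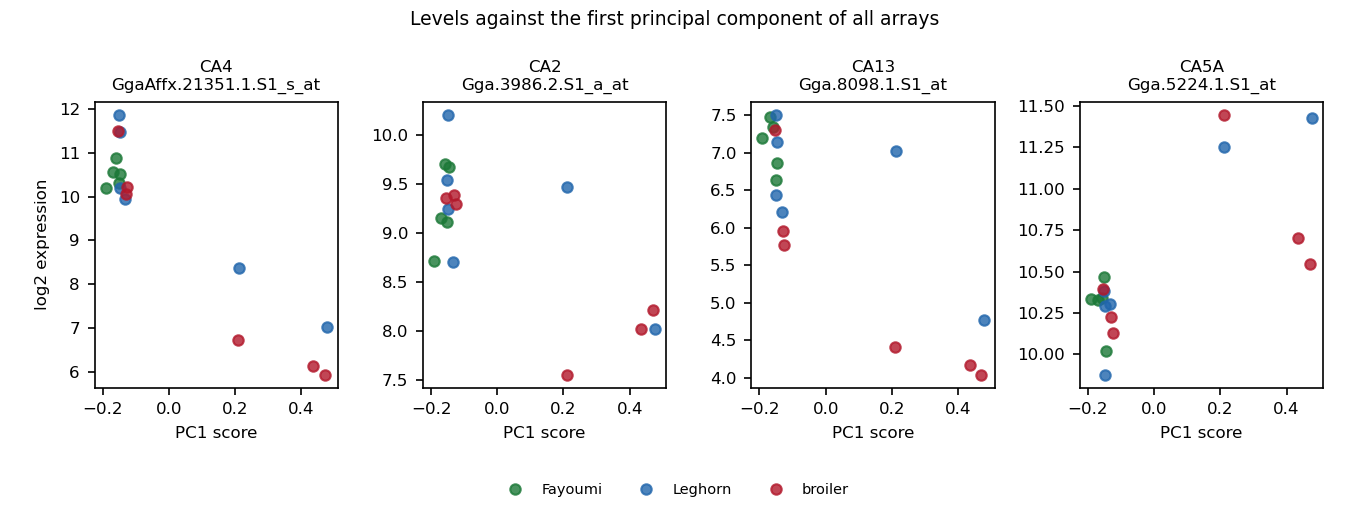
Log2 expression of members (vertical axis) against the score of each array on the first principal component (horizontal axis), coloured by line as labelled. The 5 arrays with scores of 0.210 to 0.477 hold the low CA4 values and the high values of the always-detected CA5A probe set in the last panel; the other 12 lie between -0.191 and -0.125. The probe sets shown were themselves among those behind the component.

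CA9, a transmembrane enzyme that in mammals is induced by low oxygen, was at 2.26 on 14 arrays. It read 4.93 on Leghorn 1, 4.85 on broiler 2 and 2.30 on Leghorn 6, and was at the lowest value on every Fayoumi array. Leghorn averaged 2.71 ± 1.09 and broiler 2.69 ± 1.06 (SD, n = 6 each), each set by 1 array. The 3 probe sets of CA7, a cytosolic enzyme best known from mammalian neurons, were at or below background on all 17 arrays and give no level to compare.

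Members measured on all arrays moved together in part. Over the 17 arrays the Pearson r between CA4 and the more variable CA13 probe set was 0.90, that between CA4 and CA2 was 0.79 and that between CA2 and CA13 was 0.77. Over the 12 arrays that do not stand apart the values were 0.71, 0.22 and 0.02. The always-detected CA5A probe set ran the other way, at -0.69 with CA2 and -0.67 with CA4 over 17 arrays, and at -0.62 and 0.37 over 12. All 10 pairs share the same arrays and lines, so these are descriptions, and several of them rest on the arrays that stand apart.

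Genes with the pattern most like each member were taken by Pearson r over the 17 arrays. For the always-detected CA5A probe set these were GLI2 at 0.924, IFT52 at 0.908, GUSB at 0.906, KLHL7 at 0.901 and PAQR7 at 0.901. Over the 12 arrays the same genes were at 0.640, 0.720, 0.491, -0.056 and 0.072, so the likeness of KLHL7 and PAQR7 rested on the arrays standing apart. With line means subtracted over the 15 arrays without broiler 1 and Leghorn 2, PRSS23 at 0.966 and PHKA2 at 0.948 were closest. CA4 was most like COBLL1 at 0.985, VCAM1, an adhesion molecule of endothelium, at 0.980 and GXYLT1 at 0.979, and these stayed at 0.859, 0.831 and 0.779 over the 12 arrays. The more variable CA13 probe set was most like PPFIA1, PARP8 and PIK3C2A, each at 0.946, and CA2 was most like IGF2BP3 at 0.902, DIDO1 at 0.880 and PPP2R2A at 0.870. The closest genes to CA9, KCNF1 at 0.990, CLIC5 at 0.983 and SYNPO2 at 0.976, rest on the arrays Leghorn 1 and broiler 2.

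The line-dependent CA5A probe set fell outside that naming rule, and its closest genes were looked up after its values were seen. They were DIP2A at 0.982, DEPDC5 at 0.978, ZFP511 at 0.976, SLC4A1AP at 0.963 and METTL5 at 0.963. Over the 12 arrays that do not stand apart their r was 0.966, 0.976, 0.989, 0.998 and 0.952. Both sets of r include the split of this probe set between its lowest value and its signal. With line means subtracted over the 15 arrays without broiler 1 and Leghorn 2 the closest genes were others, D2HGDH at 0.969, POLDIP2 at 0.956, ALG3 at 0.948, CDKN2B at 0.947 and PES1 at 0.932, whose r over the 12 arrays ran from -0.174 to 0.361.

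Genes beside the members in the genome were taken from RefSeq, whose annotation of bGalGal1.mat.broiler.GRCg7b served here for gene names and their order. CA13, CA3A, CA3B and CA2 lie next to each other in that order. CA5A lies between SLC7A5, KLHDC4 and JPH3 on 1 side and BANP, ZFPM1 and CIDEC on the other. Of 32 neighbouring genes other than members, limma called 0 in each comparison as labelled, with 2, 5 and 1 at an unadjusted p under 0.05 for Fayoumi against broiler, Leghorn against broiler and Fayoumi against Leghorn. Each neighbour was taken by its brightest probe set. Of all named genes taken that way, 13.9%, 6.62% and 10.01% had an unadjusted p under 0.05, and 0.961%, 0.0% and 0.761% were called. Over all chicken probe sets 10.2%, 4.88% and 7.40% had such a p, and 0.714%, 0.0% and 0.626% were called. Among the neighbours the lowest limma adjusted p-values were 0.238, 0.852 and 0.636. Without broiler 1 and Leghorn 2 limma called 1, 2 and 0 of 34 neighbours, a set that also counts CA2 and CA13 as neighbours of each other. Neither CA2 nor CA13 was called. Over all chicken probe sets it then called 1.82%, 1.75% and 1.44%. JPH3, a junctional membrane protein gene near CA5A, differed without the 2 arrays by -1.14 for Leghorn against broiler (limma adjusted p = 0.0261). As labelled JPH3 averaged 7.02 ± 0.07 in Fayoumi (SD, n = 5), 6.58 ± 0.56 in Leghorn and 7.36 ± 0.70 in broiler (SD, n = 6 each). NAE1, which lies next to CA7 and encodes a subunit of the enzyme that activates NEDD8, differed from broiler by -0.58 in Fayoumi and by -0.83 in Leghorn without the 2 arrays (limma adjusted p = 0.00194 and 0.0001).

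Other carbonic anhydrases gave 10 measured genes of 15 listed, with 17 probe sets, of which 9 were above background on an array. With each gene taken by its brightest probe set, limma called 0 of 10 in each comparison, with 2, 0 and 3 at an unadjusted p under 0.05. Of all named genes taken that way, 13.9%, 6.62% and 10.01% had such a p, and 0.961%, 0.0% and 0.761% were called. CA6, a secreted enzyme of saliva, came nearest to a call. It averaged 4.41 ± 0.85 in Fayoumi (SD, n = 5), 3.27 ± 0.15 in Leghorn and 3.17 ± 0.14 in broiler (SD, n = 6 each). The difference was 1.23 against broiler (limma adjusted p = 0.0646) and 1.14 against Leghorn (limma adjusted p = 0.104), with Fayoumi arrays spread from 3.25 to 5.24. Exactly the same value, 3.25, stood on broiler 1, 4 and 5, Fayoumi 1 and Leghorn 2, 4 and 5. Whether it is a floor of this probe set was not tested. The small Leghorn and broiler SDs may therefore not be a spread of measured levels. On Fayoumi 1 to 5 CA6 read 3.25, 3.83, 5.24, 5.11 and 4.61, with skeletal muscle medians of 2.62, 8.06, 6.95, 2.33 and 3.31. It read 3.03 on Leghorn 1, where that median was 14.18. The part of muscle in the CA6 values was not tested.

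CA8, which has the fold of the family but lacks its catalytic activity, averaged 8.84 ± 0.31 in Fayoumi (SD, n = 5), 8.03 ± 0.51 in Leghorn and 8.31 ± 0.30 in broiler (SD, n = 6 each), with limma adjusted p-values of 0.464 against broiler and 0.190 against Leghorn. CA10, another inactive relative, had 1 probe set with signal, which lay at 2.60 on the Fayoumi arrays and at 2.60 to 6.0 on the Leghorn arrays. On the broiler arrays it was at 4.76 on broiler 1 and about 2.60 on the remaining arrays. Arrays of different lines shared exact CA10 values near 2.60, as with CA6 at 3.25. CA3A and CA3B, whose mammalian relative is abundant in muscle and fat, reached 6.35 and 7.54 on Leghorn 1 and were near the lowest value elsewhere. On that array the median of 16 skeletal muscle markers was 14.18, against at most 8.06 on every other array. CA12, CA14 and CA15L lay at or next to the lowest value. The receptor phosphatase PTPRG, which carries a carbonic anhydrase-like domain, had medians of 9.20 in Fayoumi, 9.20 in Leghorn and 9.43 in broiler.

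**Figure D4:**
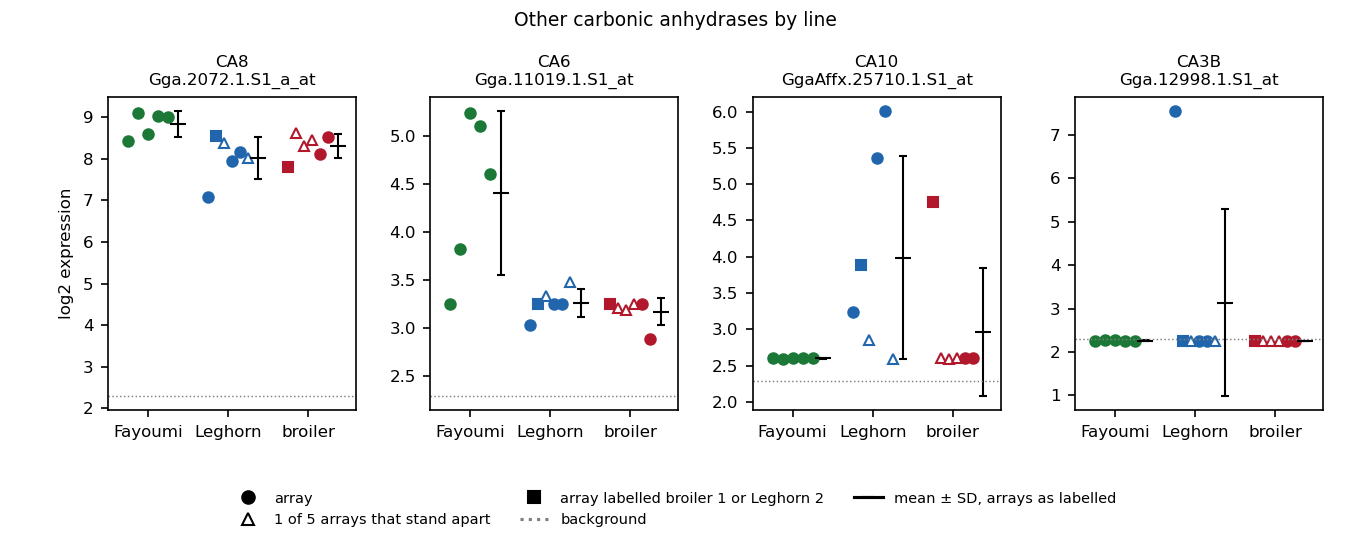
Log2 expression (vertical axis, a separate scale per panel) of CA8, CA6, CA10 and CA3B on the 17 arrays, by line as labelled; bars are mean ± SD and the dotted line is the background. Fayoumi arrays of CA6 spread from 3.25 to 5.24, CA10 reaches 6.0 among the Leghorn arrays and 4.76 on broiler 1, and CA3B is high only on Leghorn 1, at 7.54.

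The wider pathway was covered by 4 lists of 98 genes in all, 86 of them measured: the other carbonic anhydrases, carriers of bicarbonate and protons, enzymes that use bicarbonate or its products, and genes of the hypoxia response. Of the 86, limma called 0 higher and 1 lower in Fayoumi than in broiler, 0 in Leghorn against broiler and 0 higher and 1 lower in Fayoumi than in Leghorn, with 19, 4 and 15 at an unadjusted p under 0.05. These are 22.1%, 4.65% and 17.4% of the 86, where 13.9%, 6.62% and 10.01% of all 13008 named genes by their brightest probe set, and 10.2%, 4.88% and 7.40% of all chicken probe sets, had such a p. The shares called were 1.16%, 0.0% and 1.16%, against 0.961%, 0.0% and 0.761% of the named genes and 0.714%, 0.0% and 0.626% of all probe sets. The called gene was SLC16A1 both times, a transporter that carries lactate and other monocarboxylates together with a proton. Its brightest probe set averaged 8.31 ± 0.32 in Fayoumi (SD, n = 5), 9.53 ± 0.43 in Leghorn and 9.46 ± 0.39 in broiler (SD, n = 6 each). The Fayoumi arrays lay between 8.05 and 8.86, the Leghorn arrays between 8.74 and 10.03 and the broiler arrays between 8.89 and 9.94. The difference was -1.16 against broiler (SE 0.23, limma adjusted p = 0.0328) and -1.22 against Leghorn (SE 0.23, limma adjusted p = 0.0248). With 1 array left out the difference stayed between -1.29 and -1.06 against broiler and between -1.38 and -1.12 against Leghorn, while the adjusted p crossed the threshold: against broiler the call was lost without any of broiler 2 to 6, Fayoumi 1 to 4 or Leghorn 5 (adjusted p of 0.0531 to 0.1002), and against Leghorn without any of Fayoumi 1 to 4 or Leghorn 3 to 6 (0.0578 to 0.0807). Without broiler 1 and Leghorn 2 the differences were -1.27 (limma adjusted p = 0.0158) and -1.22 (limma adjusted p = 0.0204). The gene has 3 further probe sets, none of them called. The brightest of these differed by -0.89 against broiler and by -0.61 against Leghorn (limma adjusted p = 0.112 and 0.450). The other 2 differed by -0.74 and -0.49 against broiler and by -0.09 and -0.03 against Leghorn. On many arrays they held exactly the same value, 3.70 and 2.29.

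In the list of 33 measured carriers no other gene was called, and 10, 2 and 7 of the 33 had an unadjusted p under 0.05, SLC16A1 included. Among 19 enzymes limma called 0 in each comparison, with 3, 1 and 2 at an unadjusted p under 0.05. Of all named genes by their brightest probe set, 13.9%, 6.62% and 10.01% had such a p. ACACB, the acetyl-CoA carboxylase that makes malonyl-CoA at the mitochondrial surface from bicarbonate, had the lowest adjusted p against broiler. It averaged 6.66 ± 0.29 in Fayoumi (SD, n = 5), 5.77 ± 1.31 in Leghorn and 5.04 ± 0.91 in broiler (SD, n = 6 each), a difference of 1.62 for Fayoumi over broiler (limma adjusted p = 0.324). On Fayoumi 1 to 5 ACACB read 6.93, 6.62, 6.94, 6.56 and 6.24, with skeletal muscle medians of 2.62, 8.06, 6.95, 2.33 and 3.31. It read 7.25 on Leghorn 3, where that median was 2.26, and 4.78 on Leghorn 1, where it was 14.18. The part of muscle in the ACACB values was not tested. Without broiler 1 and Leghorn 2 ACACB was 1.90 higher in Fayoumi and passed the test (limma adjusted p = 0.0370). GOT2, mitochondrial aspartate aminotransferase, had the lowest adjusted p for Fayoumi against Leghorn, with a difference of -0.72 (limma adjusted p = 0.547).

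Among 24 hypoxia genes limma called 0, with 4, 1 and 3 at an unadjusted p under 0.05. The shares of all named genes with such a p were again 13.9%, 6.62% and 10.01%. VEGFA, the vascular growth factor, averaged 9.04 ± 0.45 in Fayoumi (SD, n = 5), 9.79 ± 0.30 in Leghorn and 9.63 ± 0.39 in broiler (SD, n = 6 each). Its differences were -0.58 against broiler (limma adjusted p = 0.381) and -0.74 against Leghorn (limma adjusted p = 0.237). HIF1A, the oxygen-regulated transcription factor, differed by 0.56 for Leghorn over broiler (limma adjusted p = 0.852).

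**Figure D5:**
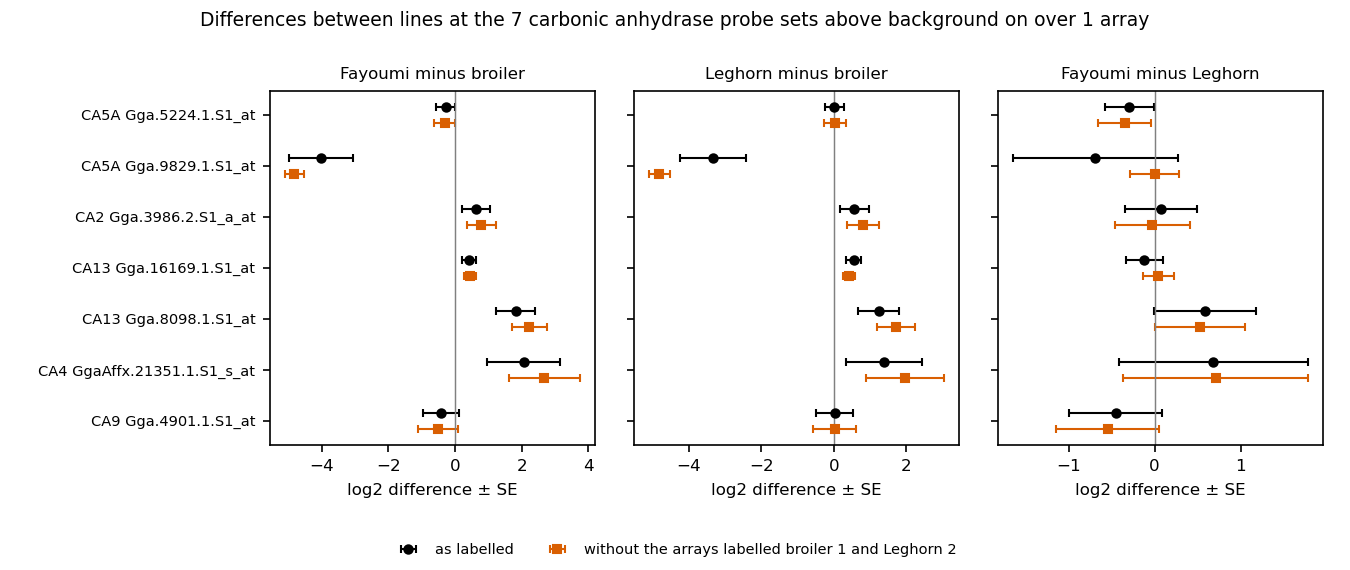
Log2 differences between lines (horizontal axis) of the member probe sets above background, with all 17 arrays and without the arrays labelled broiler 1 and Leghorn 2; bars are the standard error from limma. The line-dependent CA5A probe set is at -4.02 with all arrays and at -4.82 without the 2 for Fayoumi minus broiler, and at -3.33 and -4.82 for Leghorn minus broiler, while the always-detected CA5A probe set stays near 0.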

How the data were processed

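Gene expression was measured on 17 Affymetrix arrays of adipose tissue, 1 per sample. The authors deposited normalized log2 values for each probe set on each array. The submitters' processing notes list R 2.13.2, RMA and GCRMA and give no role for any of them. The log2 scale was read from the values, whose array medians are 2.43 to 2.54. No depth applies to arrays, and their number limits the precision.

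Of 38535 probe sets, 37693 chicken probe sets entered 1 limma 3.58.1 model in R 4.3.3 with line as its only factor (lmFit, contrasts.fit, eBayes). P-values are two-sided and were adjusted by Benjamini-Hochberg over all of them, and an adjusted p under 0.05 counted as a call. The fit was tried on simulated data with independent normal noise for each probe set. That noise holds nothing like the arrays that stand apart or lay with the other line. The trial therefore checks the code and not the calls on these arrays. Background was set at percentile 95 of 80 probe sets with no chicken target. Symbols came from the platform annotation, updated by gene number for 26863 of 27178 probe sets with 1 symbol. Genes of the lists were taken by their probe set with the highest mean. Since the labels give no detail of sampling, p-values cover only the variation among these arrays.

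The members, the gene lists and the arrays doubted were chosen with earlier results of these data known. Named genes are all members, from each list every gene called or else the 1 with the smallest adjusted p, other carbonic anhydrases, the 3 nearest named neighbours on each side, and the 5 genes for CA5A or 3 for other members with the highest Pearson r. Exceptions are marked in the text. In Leghorn against broiler several carriers and carbonic anhydrases shared the smallest adjusted p of 0.852, and carriers at the lowest value are not named. Alternatives covered the fit, array weights, normalization, filters and arrays left out. Leaving out the 2 and the 5 arrays together was added after seeing the data.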

Additional observations from a re-analysis of the deposited data

Results flagged for a closer look

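In 44 sets of arrays of 1 line, 18 had an array far from the rest by Dixon's test, which chance alone gives in about 1 in 20 sets. Most of these sets have their remaining arrays at or next to the shared lowest value, where any signal stands out. The line-dependent CA5A probe set read 6.39 on Leghorn 2, with the other Leghorn arrays at 2.26, and 2.26 on broiler 1, with the other broiler arrays at 6.21 to 8.15. Those are the arrays that lay with the other line. CA10 read 4.76 on broiler 1, with the other broiler arrays at about 2.60, while the Leghorn arrays ranged from 2.60 to 6.0. The third CA13 probe set read 2.45 on broiler 1, with the other arrays at 2.26.

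CA9 read 4.93 on Leghorn 1 and 4.85 on broiler 2. On Leghorn 1, the array with skeletal muscle markers at a median of 14.18, CA3A read 6.35, CA3B read 7.54 and PTPRZ1 read 4.41. PTPRZ1 read 4.38 on Fayoumi 2 and 3.38 on broiler 6.

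Small departures near the lowest value came from the third CA5A probe set, at 2.46 on Fayoumi 4, and from CA12, at 2.32 on Fayoumi 5, 2.29 on Leghorn 5 and 2.43 on broiler 4. CA10 read 2.60 on Fayoumi 2, below the other Fayoumi arrays by less than 0.01. CA6 read 2.88 on broiler 6, with the other broiler arrays at 3.19 to 3.25. SLC16A1 read 8.86 on Fayoumi 5, with the other Fayoumi arrays at 8.05 to 8.28.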

How the results depend on the processing

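Of 990 recomputed differences of the member probe sets under 28 alternatives, 976 moved by less than 1 SD between replicates and 14 moved further. Of the 990, 405 belong to the 5 probe sets above background on at most 1 array. Their differences stayed tiny, but so is their SD, and 1 SD is no useful measure there. The remaining moves over 1 SD came from these probe sets. Among the 585 of the other 7 probe sets 6 moved by over 1 SD and 37 turned in sign, among them CA4 for Fayoumi against broiler (2.06 as labelled and -0.10 without the 5 arrays that stand apart), CA4 for Fayoumi against Leghorn (0.68 as labelled and -0.75 with array weights) and CA2 for Fayoumi against broiler (0.63 as labelled and -0.08 without the 5). The line-dependent CA5A and both informative CA13 probe sets kept their sign against broiler. The line-dependent CA5A probe set ranged, with 1 array left out in turn, from -4.82 to -3.64 for Fayoumi against broiler, from -4.13 to -2.95 for Leghorn against broiler and from -0.83 to 0.00 for Fayoumi against Leghorn, and was -1.65 for Leghorn against broiler without the 5 arrays that stand apart.

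For Fayoumi against broiler the 269 called probe sets became 1319 with array weights, 505 with the filter on dim probe sets, 141 with the replicate number as a block, 686 without broiler 1 and Leghorn 2, 787 without the 7 arrays, and 148 to 613 with 1 array left out, the highest without broiler 1 and 148 to 174 without broiler 2 or 4 or Fayoumi 1, 2, 4 or 5. The 1 called pathway gene became 3, 2, 0, 2 and 5 in the same order, 0 with only the 2 lines fitted, 0 with the 5 arrays left out, 0 with their state as a covariate, and 0 to 2 with 1 array left out. For Leghorn against broiler the 0 called probe sets became 9 with array weights, 661 without the 2 arrays, 1 without the 5, 742 without the 7 and 0 to 118 with 1 array left out, the highest without broiler 1. The 0 pathway genes became 4 without the 7 and stayed 0 with 1 array left out. For Fayoumi against Leghorn the 236 became 2042 with array weights, 426 with the filter, 139 with the replicate block, 461 with the covariate, 544 without the 2, 397 without the 5, 953 without the 7 and 158 to 429 with 1 array left out, the highest without Leghorn 2. The 1 pathway gene became 9 with array weights, 2 with the filter, 0 with only the 2 lines, 3 with the covariate, 4 without the 7 and 0 to 1 with 1 array left out. The cause of these moves was not tested. SLC16A1 differed by -1.29 to -0.88 against broiler and by -1.38 to -1.03 against Leghorn over 28 alternatives. Its adjusted p missed the threshold in 15 of them against broiler (0.0531 to 0.288) and in 11 against Leghorn (0.0578 to 0.124).

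The replicate numbers did not pair the arrays: over 16 pairs r ran from -0.794 to 0.600, with 4 over 0.1, and 3 arrays correlated best with their own number. Values at the shared lowest value limit every difference that involves them, and the number of arrays limits the precision.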
